A study of Vitis vinifera with 66 samples.

Results

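Control berries of Sauvignon Blanc were followed here over the 9 days between 55 and 46 days after anthesis (DAA), the sampling times named T1 and T0. They were represented by 6 of the 66 RNA libraries of the series, 3 of T1_C and 3 of T0_C, chosen by their sample names. The control plants (C) were potted vines of clone 108 on the rootstock Kober 5BB that were neither waterlogged in spring nor exposed to drought and heat in summer. Berries of plants waterlogged at bud-break (F), sampled on the same days from the same tunnel and with no summer stress of their own, served for comparison, with 3 libraries of T1_F and 3 of T0_F. Every library held RNA of whole berries. By the study's methods the biological replicates were berries of randomly chosen vines, stored apart, while the labels do not tie a library to a vine. Each time point was a single sampling day, so the age of the berry and the conditions of that day cannot be told apart. A lower value in such bulk RNA can mean fewer cells of a type or less RNA per cell, and these cannot be told apart.

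The grape berry grows first as a hard, green and acid fruit, in which auxin is abundant and delays ripening. Around véraison it softens and loads sugar. Abscisic acid, made from carotenoids by 9-cis-epoxycarotenoid dioxygenases (NCEDs), rises at that stage, while auxin signaling declines. In auxin signaling, auxin response factors (ARFs) bind auxin-responsive genes and Aux/IAA proteins repress them. By the study's account T0 fell just before véraison.

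The totals were 16502970 to 16856616 counts in the T1_C libraries and 16816787 to 18243658 counts in the T0_C libraries, within the range of 15927671 to 24150978 counts of all libraries. Between replicates the chi-square per degree of freedom was 8.95 to 39.7 in T1_C and 14.6 to 25.2 in T0_C, so each pair differed by far more than sampling noise. Levels are given as counts per 1000000 of the TMM-scaled library (CPM), which can be compared between libraries but, without gene lengths, not between genes. Library T0_C2 stood apart within its group, since 54 of 13100 genes with a mean of at least 5 CPM were below 0.25 times both other T0_C libraries, while T0_C1 had 1 such gene, T0_C3 had 10 and the T1_C libraries had 2 to 5. Among the F libraries T1_F2 stood apart in the same way, with 60 such genes. T1_C1 was over 4 times both other T1_C libraries for 26 genes, while T1_C2 had 4 such genes and T1_C3 had 0. No list of skin, flesh or seed markers could be made, because the sources used here pair few gene IDs with functions.

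Between T1 and T0 the transcriptome of control berries changed in both directions. A differentially expressed gene (DEG) had a Benjamini-Hochberg adjusted p under 0.05 in edgeR's quasi-likelihood test and a fold change of at least 1.5. Of the 19625 genes tested, 1496 (7.62%) were higher and 1738 (8.86%) were lower at T1_C over T0_C, 16.5% in all. The median fold of the higher DEGs was 2.15 and that of the lower ones 2.37, while the median log2 fold change of all genes tested was -0.02. Changes of at least 16-fold were found for 107 higher and 41 lower DEGs. The 3 libraries of T1_C lay outside the range of those of T0_C for 1457 of the higher and 1704 of the lower DEGs, which describes the calls themselves, since 21.7% of all genes tested had every T1_C library above every T0_C library and 25.6% below, 47.3% in all. Which direction held more DEGs depended on the setting. Tested against a fold change of 1.5 instead of 1, 423 genes were higher and 417 lower, with no filter on low counts 1581 and 1426, and without T1_C3 1140 and 1065. In the other direction, without T0_C2, which stood apart, 1108 genes were higher and 1289 lower.

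The 2 largest rises by the rule for named genes had no annotation in the sources used here. VIT_06s0061g00550 was at 879, 1223 and 1578 CPM in the T1_C libraries, against 1.96, 2.40 and 0.26 CPM in those of T0_C (log2 fold change 9.62 ± 0.73 SE, edgeR adjusted p = 1.4e-13). VIT_15s0021g02700 was at 58.3, 62.1 and 140 CPM in T1_C, against 0.20, 0.15 and 0.16 CPM in T0_C (8.95 ± 0.93 SE, edgeR adjusted p = 2e-09). The rule admitted only genes without overlap between T1_C and T0_C libraries.

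The 2 largest falls were less even between libraries. VIT_05s0077g01930 was at 0.05 CPM in each T1_C library, against 7.44, 0.10 and 18.4 CPM in T0_C (log2 fold change -7.21 ± 1.35 SE, edgeR adjusted p = 0.00015), and its low T0_C value was that of T0_C2. VIT_10s0003g04240 was at 0, 0.16 and 0.16 CPM in T1_C, against 3.27, 2.65 and 15.4 CPM in T0_C (-6.00 ± 1.12 SE, edgeR adjusted p = 0.0022), and it lost its call with DESeq2 (adjusted p = 0.69).

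The higher DEGs together took 13.3, 12.95 and 13.5% of all counts in the T1_C libraries, against 4.81, 4.61 and 4.58% in those of T0_C. The lower DEGs took 6.78, 6.72 and 6.24% in T1_C, against 14.4, 14.7 and 15.5% in T0_C. These shares describe genes chosen on these libraries. The F libraries were not in the contrast that chose these genes, though they entered the filter, the scaling and the estimates of spread. In them the higher DEGs took 21.4% ± 0.84 of the counts in T1_F berries, against 5.35% ± 0.30 in T0_F berries (SD, n = 3 each). The lower DEGs took 3.99% ± 0.15 in T1_F, against 13.3% ± 0.77 in T0_F. Both shares thus moved further apart in F than in C. Later control berries held 20.6% ± 5.13 of their counts in the higher DEGs by T2 and 17.6% ± 0.53 by T5 (SD, n = 3 each). The T2 spread came from T2_C1, with 14.7%, beside 23.1 and 23.96% in the other T2_C libraries.

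Among the genes that the study tied to abscisic acid synthesis and breakdown, 1 of 5 rose, beside 7.62% of all genes tested. This dioxygenase gene, VIT_02s0087g00930, is called NCED4 after the study, and its part in abscisic acid synthesis was not tested. It was at 5.48, 23.0 and 21.98 CPM in the T1_C libraries, against 0.10, 0.90 and 0.47 CPM in those of T0_C. Every T1_C library thus lay above every T0_C library, and T1_C1 was well below the other T1_C libraries. The log2 fold change was 5.08 ± 0.78 (SE, edgeR adjusted p = 6.9e-06), a 33.8-fold difference. The call held in 14 of 14 alternative settings, with adjusted p-values of 1.8e-13 to 0.0043. After T1, NCED4 averaged 100 ± 39.2 CPM at T2 (log2 fold change over T1 2.58 ± 0.61 SE, edgeR adjusted p = 0.0019) and 52.1 ± 7.22 CPM at T5 (SD, n = 3). Among all genes tested 9.34% were higher and 9.86% lower at T2 over T1 (19.2% in all), and 22.6% higher and 29.6% lower at T5 over T1 (52.2% in all). These later comparisons use the same T1_C libraries.

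The other genes that the study named NCED did not pass the test over the same step. NCED3 had 24.3, 22.2 and 23.4 CPM in T1_C, against 23.9, 9.21 and 21.0 CPM in T0_C, where T0_C2 held the low value. NCED5 (VIT_10s0003g03750) had 13.7, 11.1 and 14.2 CPM in T1_C, against 9.60, 26.7 and 17.1 CPM in T0_C (log2 fold change -0.45 ± 0.72 SE, edgeR adjusted p = 0.70). The NCED5 libraries of T1_C lay within the range of those of T0_C. NCED5 passed the test at T2 over T1 (3.37 ± 0.78 SE, edgeR adjusted p = 0.0016), with 134.6 ± 45.85 CPM at T2 (SD, n = 3). NCED6 was at 0 to 0.15 CPM in the 6 libraries, within the 3 counts taken as the floor of a library. CYP707A3, the hydroxylase that breaks abscisic acid down, had 0.55, 0.58 and 0.58 CPM in T1_C, against 1.46, 1.35 and 0.37 CPM in T0_C (edgeR adjusted p = 0.31).

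**Figure D1:**
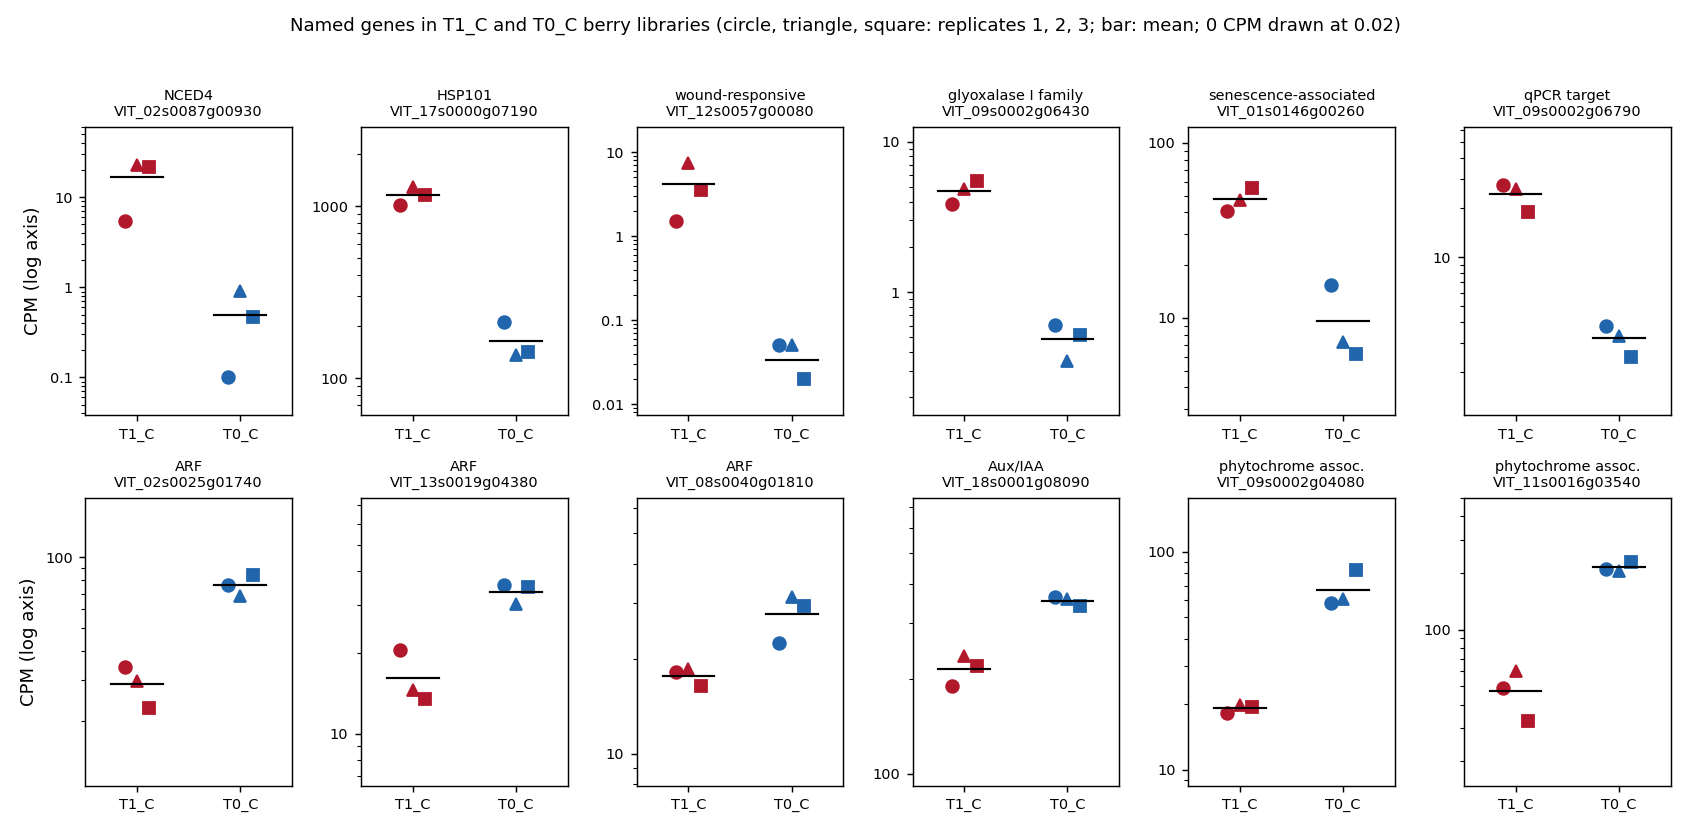
CPM on a log axis in the T1_C (left, red) and T0_C (right, blue) libraries for 12 genes that passed the test, with circles, triangles and squares for replicates 1, 2 and 3 and a bar for the mean. In each panel the T1_C and T0_C libraries do not overlap, and T1_C1 is the lowest T1_C library for NCED4 at 5.48 CPM.

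None of the 5 ethylene genes passed the test in edgeR, beside 16.5% called over all genes tested. Of the 5, 1 had an unadjusted p under 0.05 in edgeR and 1 was called by DESeq2. ACO1 (VIT_11s0016g02380), an ACC oxidase that makes ethylene from its precursor ACC, came nearest. It was at 0.25, 5.19 and 1.64 CPM in T1_C, against 0.15, 0.05 and 0.05 CPM in T0_C (log2 fold change 4.69 ± 1.82 SE, edgeR adjusted p = 0.058). The T1_C libraries were very uneven, T1_C1 being close to the T0_C level, and the gene was called without T1_C1 and with DESeq2. It reached 43.8 ± 31.4 CPM at T2 (SD, n = 3; 4.22 ± 1.13 SE over T1, edgeR adjusted p = 0.0057). The ACC synthase gene VIT_02s0025g00360 had 27.8, 21.3 and 24.3 CPM in T1_C, against 51.5, 23.2 and 54.2 CPM in T0_C (edgeR adjusted p = 0.33). ACO3 had 184, 232 and 277 CPM in T1_C, against 472, 632 and 443 CPM in T0_C. These ACO3 values did not overlap, yet the fitted change of -1.16 ± 0.79 (SE) gave an edgeR adjusted p of 0.31. Only with the 6 control libraries alone in the model was ACO3 called. ACS1, an ACC synthase gene, had a single count in the 6 libraries.

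The gibberellin oxidases tested and the isochorismate synthase gene ICS, of salicylic acid synthesis, were not called. The gibberellin oxidases here are the 4 that the study named by ID, only a part of those it identified. Of the 3 gibberellin oxidases tested, 0 passed in edgeR, beside 16.5% called over all genes tested. None of the 3 had an unadjusted p under 0.05 in edgeR, and 0 were called by DESeq2. Of the gibberellin oxidases GA20ox and a GA2ox stayed under 1 CPM in the 6 libraries. The GA2ox gene VIT_10s0116g00410 had 14.6, 2.91 and 7.89 CPM in T1_C, against 7.29, 12.9 and 6.53 CPM in T0_C. GA3ox was not tested, with 0 counts in T1_C and 1 in T0_C. ICS had 13.2, 15.4 and 12.3 CPM in T1_C, against 19.2, 20.2 and 17.7 CPM in T0_C (log2 fold change -0.48 ± 0.24 SE, edgeR adjusted p = 0.14).

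Of 16 auxin signaling genes, 7 fell at T1_C over T0_C, 0 rose and 9 did not pass the test, beside 8.86% lower and 7.62% higher over all genes tested. The study named the 16 for being lower in F than in C at T1, so they were chosen on the T1_F and T1_C libraries and are not independent evidence of a direction in either. All 16 fitted changes were negative, with a median log2 fold change of -0.99 beside -0.02 over all genes tested, and 12 had every T1_C library below every T0_C library, beside 25.6% of all genes tested. In F berries, where the choice on T1_F favours a fall, all 16 were lower at T1_F over T0_F, with a median of -2.94, and nothing is read from that count.

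Of the 6 ARF genes, 3 fell, beside 8.86% of all genes tested. VIT_02s0025g01740 was at 34.2, 29.8 and 22.7 CPM in T1_C, against 75.9, 68.6 and 84.1 CPM in T0_C (log2 fold change -1.40 ± 0.42 SE, edgeR adjusted p = 0.015, and 0.078 without T1_C3). VIT_13s0019g04380 was at 20.4, 14.6 and 13.5 CPM in T1_C, against 35.6, 30.2 and 35.0 CPM in T0_C (-1.06 ± 0.15 SE, edgeR adjusted p = 1e-06). VIT_08s0040g01810 was at 18.2, 18.5 and 16.4 CPM in T1_C, against 22.4, 31.3 and 29.3 CPM in T0_C (-0.65 ± 0.20 SE, edgeR adjusted p = 0.02, and up to 0.093 without T0_C2, T0_C3 or T1_C3). For each of these the T1_C libraries were all below those of T0_C. VIT_13s0019g04380 was called in 14 of 14 alternative settings.

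The other ARF genes missed the threshold. VIT_06s0004g03130 had 105, 73.3 and 65.5 CPM in T1_C, against 139, 165 and 201 CPM in T0_C (-1.05 ± 0.42 SE, edgeR adjusted p = 0.068). VIT_15s0046g00290 had 50.2, 43.2 and 46.4 CPM in T1_C, against 112, 126 and 167 CPM in T0_C (-1.54 ± 0.79 SE, edgeR adjusted p = 0.16). Neither overlapped between the times, and both were called with only the control libraries of T1 and T0 in the model, VIT_06s0004g03130 also with the replicate block (adjusted p = 0.049). VIT_10s0003g04100 overlapped, with 139, 96.9 and 79.4 CPM in T1_C, against 110, 137 and 195 CPM in T0_C.

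Of the 4 Aux/IAA repressor genes, VIT_18s0001g08090 fell. It was at 189, 237 and 220 CPM in T1_C, against 363, 356 and 340 CPM in T0_C (-0.71 ± 0.24 SE, edgeR adjusted p = 0.029). Without any 1 of the T0_C libraries, T1_C1 or T1_C3 the call was lost, with adjusted p-values up to 0.1. The auxin induced protein VIT_07s0005g04380 also fell, with 6.08, 4.50 and 4.29 CPM in T1_C, against 8.85, 9.26 and 11.4 CPM in T0_C (-0.99 ± 0.37 SE, edgeR adjusted p = 0.048), and lost its call without any 1 of the 6 control libraries and with no filter on low counts (up to 0.15). Neither auxin efflux carrier gene passed the test.

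Both phytochrome associated protein genes fell, and theirs were the largest changes among the 16. VIT_11s0016g03540 was at 48.8, 60.5 and 32.7 CPM in T1_C, against 209, 206 and 228 CPM in T0_C (-2.18 ± 0.65 SE, edgeR adjusted p = 0.014, and 0.074 without T1_C3). VIT_09s0002g04080 was at 18.3, 19.9 and 19.4 CPM in T1_C, against 57.9, 60.99 and 82.1 CPM in T0_C (-1.81 ± 0.53 SE, edgeR adjusted p = 0.013, and 0.05 without T0_C3). Neither gene overlapped between the times. In later control berries VIT_11s0016g03540 averaged 12.47 ± 17.2 CPM at T2 and 3.04 ± 0.77 CPM at T5 (SD, n = 3), and it was lower at T5 over T1 (-3.96, edgeR adjusted p = 1.1e-05).

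The count of 7 depended on single libraries. It was 5 without T0_C1, 4 without T0_C2, 3 without T0_C3, 5 without T1_C1, 6 without T1_C2 and 2 without T1_C3, the last being VIT_13s0019g04380 and VIT_09s0002g04080. With only the control libraries of T1 and T0 in the model it was 10. Beside the 16, the auxin linked gene VIT_10s0003g00420 fell, with 77.0, 57.7 and 60.1 CPM in T1_C, against 94.2, 115 and 134 CPM in T0_C (-0.82 ± 0.28 SE, edgeR adjusted p = 0.028, over 0.05 without T0_C2, T0_C3, T1_C2 or T1_C3). VIT_15s0046g01280 had an adjusted p of 0.0076 in edgeR but a fold change under 1.5 (0.54 ± 0.15 SE), so it was not called.

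**Figure D2:**
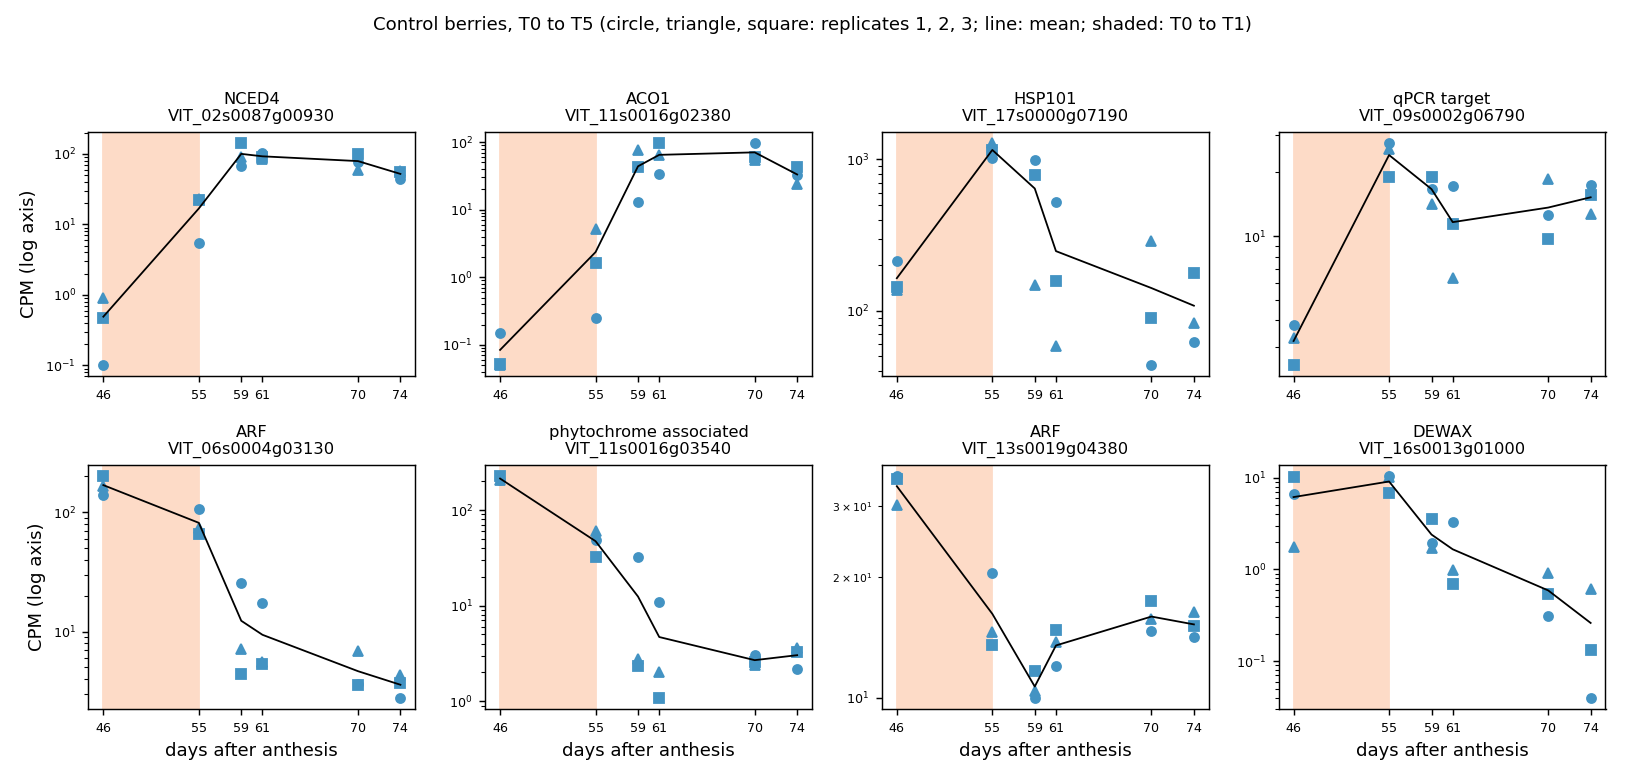
CPM on a log axis of 8 genes in control berries against days after anthesis (46 to 74), with circles, triangles and squares for replicates 1, 2 and 3 and a line through the means of 3 libraries. NCED4 and ACO1 were higher at T2 than at T1, HSP101 was highest at T1 with a mean of 1156 CPM, and DEWAX had its low T0 value of 1.75 CPM in replicate 2.

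HSP101 (VIT_17s0000g07190), a chaperone that dissolves protein aggregates and is induced by heat in plants, was much higher at T1 in these berries, which had no heat treatment. It was at 1021, 1288 and 1160 CPM in T1_C, against 212, 137 and 143 CPM in T0_C. The T1_C libraries lay close together and far above each T0_C library. The log2 fold change was 2.82 ± 1.05 (SE, edgeR adjusted p = 0.049). The call was marginal in the model of all 66 libraries. It was lost without any 1 of the 6 control libraries (adjusted p = 0.069 to 0.14), with RLE scaling (0.051) and with no filter on low counts (0.063), whereas the SE was 0.20 and the adjusted p 0.00025 with the 6 control libraries alone. In F berries HSP101 had 406, 236 and 692 CPM at T1, against 232, 113 and 186 CPM at T0 (1.33 ± 1.002 SE, edgeR adjusted p = 0.28), and the difference F minus C of -1.49 did not pass the test (adjusted p = 0.59). Later control libraries were uneven, with 992, 147 and 789 CPM at T2 and a mean of 108 ± 62.0 CPM at T5 (SD, n = 3).

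Genes that the study placed in a co-expression subnetwork tied to the cytokinin 2-IP were higher or not called. The subnetworks were built on these samples, so they are no independent evidence. Of 7 genes named there 5 were tested, 2 rose, beside 7.62% of all genes tested, and none fell, with a median log2 fold change of 1.82 beside -0.02 for all genes. The wound-responsive protein gene VIT_12s0057g00080 was at 1.51, 7.41 and 3.55 CPM in T1_C, against 0.05, 0.05 and 0 CPM in T0_C (6.69 ± 1.98 SE, edgeR adjusted p = 0.013). The T0_C libraries held 2 counts of it in all, against 237 in T1_C, a ratio of 121 with a 95% counting interval of 33.2 to 1007. Its call was lost without T0_C3 or T1_C2 (highest adjusted p = 0.055). The neighbouring VIT_12s0057g00110, also wound-responsive, had 4.93, 6.09 and 4.87 CPM in T1_C, against 1.66, 1.85 and 1.46 CPM in T0_C, which did not overlap but did not pass (edgeR adjusted p = 0.16). The senescence-associated protein gene VIT_01s0146g00260 was at 40.5, 47.1 and 55.2 CPM in T1_C, against 15.4, 7.31 and 6.21 CPM in T0_C (2.30 ± 0.76 SE, edgeR adjusted p = 0.026, up to 0.11 without T0_C2, T0_C3 or T1_C3). It averaged 1249 ± 301 CPM at T5 (SD, n = 3).

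Of 10 genes that the study named with a function in the subnetwork tied to abscisic acid, 7 were tested. Among these 1 rose, beside 7.62% higher and 16.5% called over all genes tested. It was the glyoxalase I family gene VIT_09s0002g06430, of a family named for an enzyme that removes methylglyoxal. It was at 3.87, 4.82 and 5.45 CPM in T1_C, against 0.60, 0.35 and 0.52 CPM in T0_C (3.24 ± 0.74 SE, edgeR adjusted p = 0.0014), and was called in 14 of 14 alternative settings. All 7 fitted changes were positive, with a median of 0.86. The matrix metalloproteinase gene VIT_01s0026g00900 had 4.93, 10.9 and 11.3 CPM in T1_C, against 2.31, 1.002 and 1.62 CPM in T0_C, without overlap and short of the threshold (2.46 ± 1.003 SE, edgeR adjusted p = 0.073). It was called by DESeq2 (adjusted p = 0.036) and with only the control libraries of T1 and T0 in the model (0.0045).

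Of the genes of trehalose and galactinol synthesis 1 of 5 fell, beside 8.86% lower and 16.5% called over all genes tested. DESeq2 called 2 of the 5. The trehalose-phosphatase family gene VIT_01s0011g05960 was at 41.8, 35.6 and 34.4 CPM in T1_C, against 55.6, 50.8 and 68.5 CPM in T0_C (-0.65 ± 0.24 SE, edgeR adjusted p = 0.047). This call was lost without any 1 of the 6 control libraries, with no filter on low counts and with replicates as a block. GOLS4, a galactinol synthase gene, had 24.7, 20.5 and 20.8 CPM in T1_C, against 26.2, 33.95 and 16.8 CPM in T0_C (-0.22 ± 0.45 SE, edgeR adjusted p = 0.77), and it was higher at T2 over T1 (2.30, edgeR adjusted p = 0.00049). Of glutamate, proline and chlorogenic acid synthesis the study named 6 genes by ID, and none of them passed the test in edgeR. Of the 6, 2 had an unadjusted p under 0.05 in edgeR, and DESeq2 called 0. All 6 fitted changes were negative, with a median of -0.64 beside -0.02 over all genes tested. The study named the 6 for higher expression in stressed berries or from T3 in this same series. They are thus no independent evidence of a direction. P5CS, which starts proline synthesis, was the nearest of them, with 93.4, 157 and 132 CPM in T1_C, against 210, 221 and 197 CPM in T0_C (-0.72 ± 0.29 SE, edgeR adjusted p = 0.075). P5CS was called with the replicate block (adjusted p = 0.041) and with only the control libraries of T1 and T0 in the model (0.025). The pectin lyase gene VIT_07s0005g02090, of cell wall breakdown, had 0.75, 0.48 and 0.32 CPM in T1_C, against 0.96, 1.55 and 0.47 CPM in T0_C.

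The 13 targets of quantitative PCR in the study's primer list were chosen among DEGs of this same series, so their count is no independent evidence. Of these 13, 2 rose and 1 fell, beside 16.5% called over all genes tested, and DESeq2 called 4. Their primers are shown because they define the transcript stretch by which these 3 genes can be followed, and all letters are in lower case since no base differs in role. The 5′ to 3′ sequences come from the study's primer list.
VIT_09s0002g06790 forward: cttggctcgtttggctttgag
VIT_09s0002g06790 reverse: ttgccgagaacctcttcaca
VIT_14s0060g02340 forward: aatcaaagatgctgtcgtcactgtt
VIT_14s0060g02340 reverse: tttattatccgagccacattgagcc
VIT_07s0141g00290 forward: aggaagtgaggtggtgaggaa
VIT_07s0141g00290 reverse: aggtctggctggatcattacc

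The IDs place these genes on chromosomes 9, 14 and 7 of the reference used by the study. VIT_09s0002g06790 was at 27.6, 25.9 and 18.96 CPM in T1_C, against 3.82, 3.31 and 2.45 CPM in T0_C (2.91 ± 0.48 SE, edgeR adjusted p = 2.4e-05). VIT_14s0060g02340 was at 105, 38.0 and 33.4 CPM in T1_C, against 14.3, 14.1 and 13.4 CPM in T0_C (2.07 ± 0.42 SE, edgeR adjusted p = 0.00042). Its T1_C1 value was far above the other T1_C values, and without T1_C1 its log2 fold change was 1.36 (adjusted p = 0.023). It was lower at T2, with 12.2 ± 0.31 CPM at T2 (SD, n = 3; -2.27 over T1, edgeR adjusted p = 2e-04). VIT_07s0141g00290 was at 27.7, 40.5 and 41.6 CPM in T1_C, against 79.3, 79.5 and 65.2 CPM in T0_C (-1.03 ± 0.34 SE, edgeR adjusted p = 0.026, up to 0.12 without T0_C1, T0_C2 or T1_C1).

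The 5 housekeeping genes of the quantitative PCR were not called, as 0 of 5 passed both thresholds in edgeR, beside 16.5% over all genes tested. Of the 5, 2 had an unadjusted p under 0.05 in edgeR and DESeq2 called 0. VIT_06s0004g03310 and VIT_04s0008g07400 had log2 fold changes of -0.16 and -0.18, and the lowest of the 5 was -0.4. VIT_13s0019g04720 had a fold of 1.27 (log2 fold change 0.34 ± 0.12 SE, edgeR adjusted p = 0.034), which is under the fold threshold. VIT_17s0000g05580 was the least even, with 45.8, 18.7 and 22.7 CPM in T1_C, against 17.04, 11.7 and 7.88 CPM in T0_C (1.25 ± 0.62 SE, edgeR adjusted p = 0.15).

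The genes listed by GO term from the subnetwork tied to salicylic acid are only a part of it. They did not pass the test between the time points, and library T0_C2 was low for many of them. Of the 51 genes listed 49 were tested, and edgeR called 0 of them higher or lower, beside 16.5% called over all genes tested. An unadjusted p under 0.05 in edgeR was found for 1 of the 49, beside 6678 of all 19625 genes tested. DESeq2 called 0 of the 49, and their median log2 fold change was -0.16. With only the 6 control libraries in the model 2 were lower. In library T0_C2, 13 of the 49 were below 0.25 times both other T0_C libraries. Among the 14 under the GO term transcription factor activity this held for 9. VIT_16s0013g00970 was at 21.5, 23.0 and 13.9 CPM in T1_C, against 19.7, 2.50 and 24.1 CPM in T0_C. VIT_03s0063g00460 was at 8.04, 2.86 and 6.83 CPM in T1_C, against 8.90, 0.10 and 6.995 CPM in T0_C. In both genes T0_C2 was the lowest of the 6 libraries. Without T0_C2 the count of calls among the tested genes stayed at 0, and the median was -0.27.

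The same library was low across a block of IDs on chromosome 16 that holds DEWAX (VIT_16s0013g01000), named for an Arabidopsis repressor of cuticular wax synthesis. Of 20 rows between VIT_16s0013g00900 and VIT_16s0013g01120, 14 were tested and none was called, beside 16.5% called over all genes tested. In T0_C2 10 of the 14 were below 0.25 times both other T0_C libraries. Among these low genes VIT_16s0013g00950, VIT_16s0013g00970, VIT_16s0013g00990, VIT_16s0013g01050, VIT_16s0013g01070 and VIT_16s0013g01090 are also in the salicylic acid list above. The counts of low genes in that list and in the block thus overlap and are not separate observations. The summed level of the block was 199, 180 and 132 CPM in the T1_C libraries, against 161, 36.5 and 172 CPM in those of T0_C. In the T0_F libraries of the same day it was 98.2, 51.2 and 154 CPM, so the block was uneven there too, with T0_F2 lowest. DEWAX had 10.5, 10.1 and 6.78 CPM in T1_C, against 6.64, 1.75 and 10.1 CPM in T0_C (0.56 ± 0.81 SE, edgeR adjusted p = 0.66). It was lower at T5 over T1 (-5.09, edgeR adjusted p = 4.4e-05). Whether T0_C2 differed in the berries or in their handling was not tested. Neighbouring IDs can be near-identical copies, and the study counted uniquely mapping reads, so single levels within the block are uncertain.

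**Figure D3:**
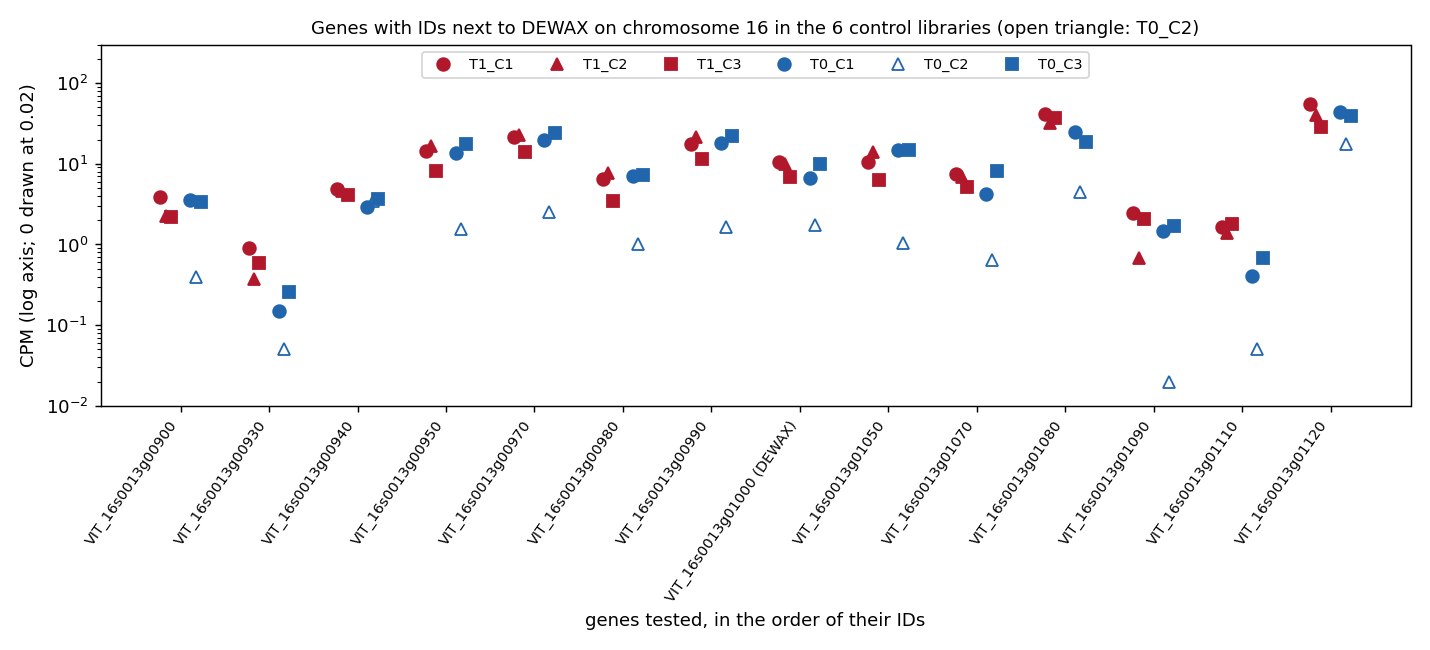
CPM on a log axis of the 14 tested genes with IDs next to DEWAX, in ID order, in the T1_C (red) and T0_C (blue) libraries. The open triangle is T0_C2, which is below 0.25 times both other T0_C libraries for 10 of the 14 genes.

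The change of control berries was set against that of F berries, whose libraries it does not share. In F, 3336 genes (17%) were higher and 4442 (22.6%) lower at T1 over T0, 39.6% in all. Without T1_F2, which stood apart, the counts in F were 3063 and 3771, and 1147 higher and 1406 lower genes were shared with C. Of the higher DEGs of C, 1174 were also higher in F, which is 78.5% of those of C and 35.2% of those of F. Of the lower DEGs of C, 1488 were also lower in F, 85.6% of those of C and 33.5% of those of F. The fitted change in F had the same sign for 98.2% of the higher and 98.8% of the lower DEGs of C, beside 76.3 and 81% over all tested genes with positive and negative changes in C. The median log2 fold change of the higher DEGs of C was 1.3 in F and 1.11 in C, and that of the lower ones -1.58 in F and -1.24 in C.

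The difference between F and C itself passed the test for few genes, while 3567 of the 19625 tested had an unadjusted p under 0.05 in edgeR. A gene without a call may thus still have changed differently in F and C. The difference was above 0 for 117 genes (0.596%) and below 0 for 48 (0.245%), 0.841% in all. Of the 117, 84 were higher in F without being called in C. One gene was called in opposite directions, higher in C and lower in F. These counts depended on single libraries: they were 0 and 0 without T0_C1, T1_C1, T0_F3 or T1_F2 (edgeR, with 2595 to 2919 genes at an unadjusted p under 0.05), 3 and 0 without T0_C2, with DESeq2 they were 316 and 178, and with only the libraries of the 4 groups 979 and 1378. The ARF gene VIT_06s0004g03130 was the 1 named gene among them, with 7.70, 5.47 and 15.9 CPM in T1_F, against 119, 127 and 114 CPM in T0_F, a difference F minus C of -2.58 ± 0.60 (SE, edgeR adjusted p = 0.031). The study named this gene for being lower in T1_F than in T1_C, which is part of that difference, so the value is a description and no support. It was not called in 8 of 20 alternative settings, each without 1 library, with adjusted p-values up to 0.13.

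**Figure D4:**
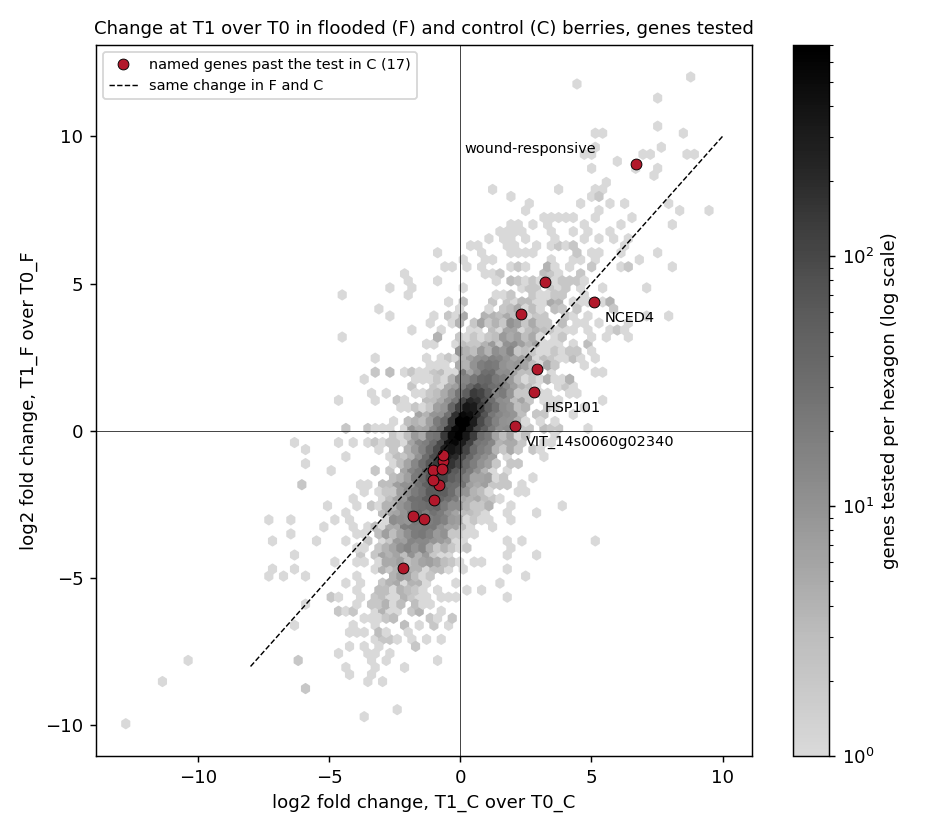
The log2 fold change of T1_F over T0_F (y axis) against that of T1_C over T0_C (x axis) for the genes tested, with darker hexagons holding more genes and red points for the 17 listed genes that passed the test in C. NCED4 lay at 4.37 in F and 5.08 in C, HSP101 at 1.33 in F and 2.82 in C, and VIT_14s0060g02340 at 0.18 in F and 2.07 in C.

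The position of each control library was measured along the change of F berries, by projecting log2(CPM + 4) of the 7778 DEGs of T1_F over T0_F on their mean change, so that F averages 1 at T1 and 0 at T0. The T1_C libraries lay at 0.42, 0.51 and 0.56, against -0.03, -0.06 and -0.09 for T0_C. The T1_C libraries thus lay between the ends of the scale, where T1_F held 0.97, 1.05 and 0.98. Both ends were set by the F libraries, on genes called in those libraries. The distance of T1_C from T1_F is therefore partly built in and only a description. T1_C1, the library with low NCED4 and ACO1, was the one nearest to T0. At the next step T2_C1 lay at 0.61, and T2_C2 and T2_C3 at 0.95 and 1.02. From T4 on the control libraries lay within 0.95 to 0.96 at T4 and 0.91 to 0.92 at T5. With 3 libraries against 3 an exact permutation test cannot give a two-sided p under 0.10, so none was run.

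**Figure D5:**
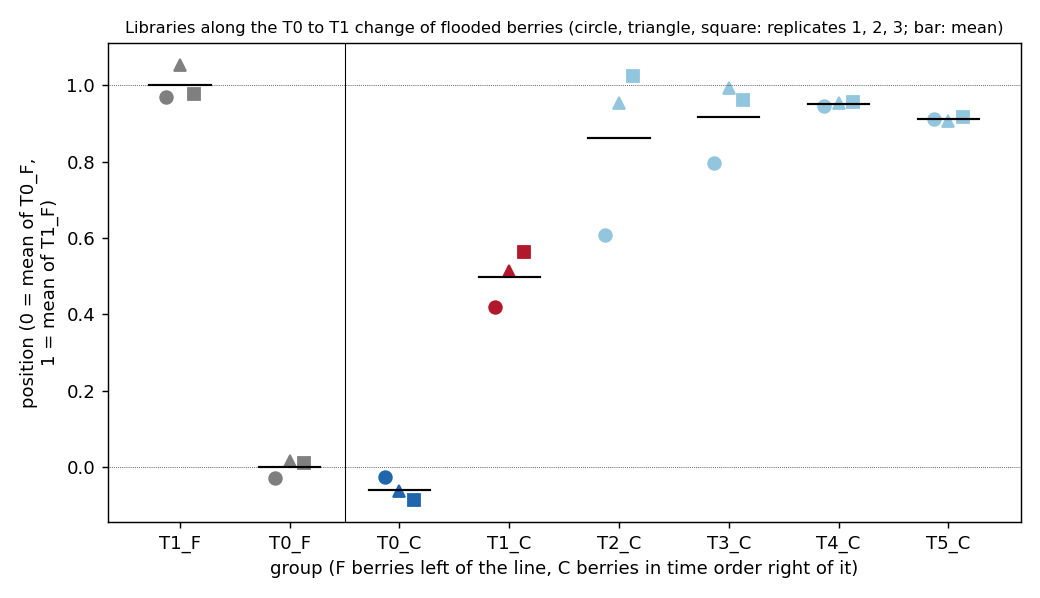
Position of each library along the T0 to T1 change of F berries, with 0 at the mean of T0_F and 1 at the mean of T1_F. The F groups stand left of the line and the control groups right of it in time order, with symbols for the 3 replicates and a bar for the mean, and the T1_C libraries lie between 0.42 and 0.56.

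Genes seen at only 1 of the time points were few. Of the genes tested 197 had 0 counts in all T0_C libraries and 132 in all T1_C libraries, 71 of them in both. Of those at 0 in T0_C, 19 were DEGs, 4 reached a mean of 1 CPM in T1_C and the highest mean was 1.99 CPM, where 3 counts in a library correspond to 0.15 to 0.16 CPM. Of those at 0 in T1_C, 6 were DEGs, and the one with the highest mean in T0_C, 44.3 CPM, had 22.2, 0 and 111 CPM, with the 0 again in T0_C2. These limits cover counting error only.

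The DEGs were spread over all chromosome parts of the IDs. The share of higher DEGs was 5.91 to 10.1% per chromosome, with the extremes on chromosomes 7 and 2, and that of lower DEGs 7.54 to 10.5%. Runs of at least 4 tested genes in ID order that moved the same way numbered 9 for higher DEGs, with 45 genes, and 6 for lower DEGs, with 25 genes. The longest held 9 higher DEGs on chromosome 4, and a run of 6 on chromosome 12 began directly after the wound-responsive gene VIT_12s0057g00110. A run of 4 before it included the wound-responsive VIT_12s0057g00080. Neighbouring copies can share reads, so these counts of genes are uncertain.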

How the data were processed

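RNA of whole berries was sequenced by the authors as single-end stranded reads, aligned with TopHat to the 12X grapevine genome and counted per gene over uniquely mapping reads. As deposited by the authors, the values are whole-number read counts per gene row and are not normalized. Per the labels Trimmomatic 0.39 and featureCounts were used, whereas the paper's methods give no trimming and another counting tool. The sources used here give no version of TopHat or featureCounts. The table held 29688 rows, 300 of them sharing an ID with another row, and these were kept apart.

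The counts of all 66 libraries were fitted in R 4.3.3 with edgeR 4.0.16 (TMM, quasi-likelihood with robust estimation) in one model with a mean for each of 22 groups. A gene was tested where 3 or more libraries reached 0.5 CPM, and p-values were adjusted by Benjamini-Hochberg over all of them. Alternatives were DESeq2 1.42.0, RLE scaling, other filters, fewer libraries in the model, a replicate block, summed rows and leaving out libraries in turn, the last for the position chosen after seeing the data, as were the counts of listed genes under each alternative. Scripts were tested on simulated data. Genes were named from the paper's text and tables (127 IDs, all found), plus the 2 largest rises and 2 largest falls among DEGs with a mean of at least 5 CPM and no overlap. No reference row held an ID of the table (0 matched). The comparison and these lists were chosen with earlier results of these data known. Intervals and floors cover counting error only, at 95% and 3 counts per library. The values of 1 listed ethylene gene are not reported here.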

Additional observations from a re-analysis of the deposited data

Results flagged for a closer look

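The change from T0 to T1 differed between F and C berries by the test of the difference itself for 117 genes above 0 and 48 below 0 (edgeR, adjusted over 19625 genes). For the ARF gene VIT_06s0004g03130 the difference F minus C was -2.58 on the log2 scale, a description only, since the study named this gene on the T1_F and T1_C libraries that enter the difference. In T1 over T0 the gene had a log2 fold change of -3.63 in F and -1.05 in C, negative in both.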

How the results depend on the processing

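The counts of DEGs of T1_C over T0_C were 1108 to 1296 higher and 1065 to 1412 lower when each of the 6 libraries was left out in turn, and 423 and 417 when tested against a fold change of 1.5. DEGs shared with F numbered 917 to 1147 higher and 911 to 1445 lower without single libraries, and those of F 3036 to 3194 and 3771 to 4231. No DEG of C took the opposite direction in any of the 15 alternatives that were run. The difference F minus C gave 0 to 151 genes above 0 and 0 to 62 below 0 without single libraries. Where it gave 0 and 0, 2595 to 2919 genes had an unadjusted p under 0.05. It gave 316 and 178 with DESeq2, 979 and 1378 with only the libraries of the 4 groups, 29 below 0 with no filter on low counts and 67 above 0 with the replicate block. The cause was not tested.

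The labels do not say whether the replicate numbers mark a shared plant. Same-numbered libraries of T1_C and T0_C correlated at -0.22, 0.06 and -0.25 in their deviations. Libraries of different numbers correlated at -0.2 to 0.3. With so few libraries a group these values can neither show nor exclude a pairing. With the replicate block 1479 genes were higher and 1747 lower in C, P5CS and VIT_06s0004g03130 were gained and VIT_01s0011g05960 was lost. The positions of the T1_C and T0_C libraries moved by less than the SD of their group under every alternative run. With a pseudocount of 1 the T4_C and T5_C libraries moved by more than theirs, for instance T5_C1 to 0.95, against 0.91 with a pseudocount of 4.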
